A study of Rattus norvegicus with 12 samples.

Results

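Voltage-gated sodium channels of the parietal cortex were examined in young and aged male Fischer 344 (F344) rats through the genes Scn1a, Scn2a, Scn3a and Scn8a, which encode pore-forming alpha subunits, and Scn2b, Scn3b and Scn4b, which encode auxiliary beta subunits. All probe sets that the platform annotation assigns to these symbols were taken, 9 probe sets for 7 genes out of 31099 probe sets and 14218 genes on the array. A probe set is a group of short oligonucleotides that together report 1 transcript. RNA of each rat was hybridised to its own Affymetrix RAE230 2.0 array, which gave 6 young and 6 aged arrays. The labels give ages of 3 to 5 months (young) and 21 to 23 months (aged). The titles name parietal cortex, whereas the tissue field names frontal cortex. All animals, whatever their age, carried a telemetry implant for brain and muscle recording and had been trained in a water maze, so no untreated group was measured.

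The alpha subunit forms the sodium-selective pore that opens on depolarisation and carries the rising phase of the action potential. Beta subunits are single-pass membrane proteins with an immunoglobulin-like outer domain that set the gating and surface level of the alpha subunit and take part in cell adhesion. In adult cortex, the product of Scn1a is best known from fast-spiking inhibitory neurons, those of Scn2a and Scn8a from the axon initial segment of excitatory neurons, and that of Scn3a from the developing brain. The comparison of ages asks whether the cortical transcript level of these subunits differed between young and aged rats that had been followed for sleep and maze learning.

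The arrays of aged rats 2 and 6 stood somewhat apart. Over all probe sets aged rat 2 had the lowest mean correlation with the other arrays, 0.946 against 0.951 to 0.956, and aged rat 6 the highest median signal, 194 against 161.6 to 177. Their weights in a fit with array weights were 0.517 and 0.485, against 0.892 or more for the others. Member differences are therefore also given without aged rat 2, and both rats were left out together as an alternative.

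All 9 probe sets lay above the signal cutoff of 19.7 on 12 of 12 arrays and were tested. None passed an adjusted p of 0.05 (limma, Benjamini-Hochberg over 28193 probe sets), where 0.0248% of all probe sets did. At an unadjusted p up to 0.05, 1 of the 9, that of Scn2a, was lower in aged rats, against 2.13% of all probe sets lower, 5.67% higher and 7.8% in either direction. The aged mean was lower at 7 of the 9 probe sets and higher at 2, and 42.3% of all probe sets were lower. The median difference (aged minus young, log2 signal) was -0.05 over the 9 and 0.03 over all probe sets tested. At 0 of the 9 did the signals of the ages fail to overlap, which was the case for 0.621% of all probe sets. The estimates ran from -0.19 for Scn3a to 0.48 for Scn4b, so the extremes lay in an alpha and a beta subunit.

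**Figure D1:**
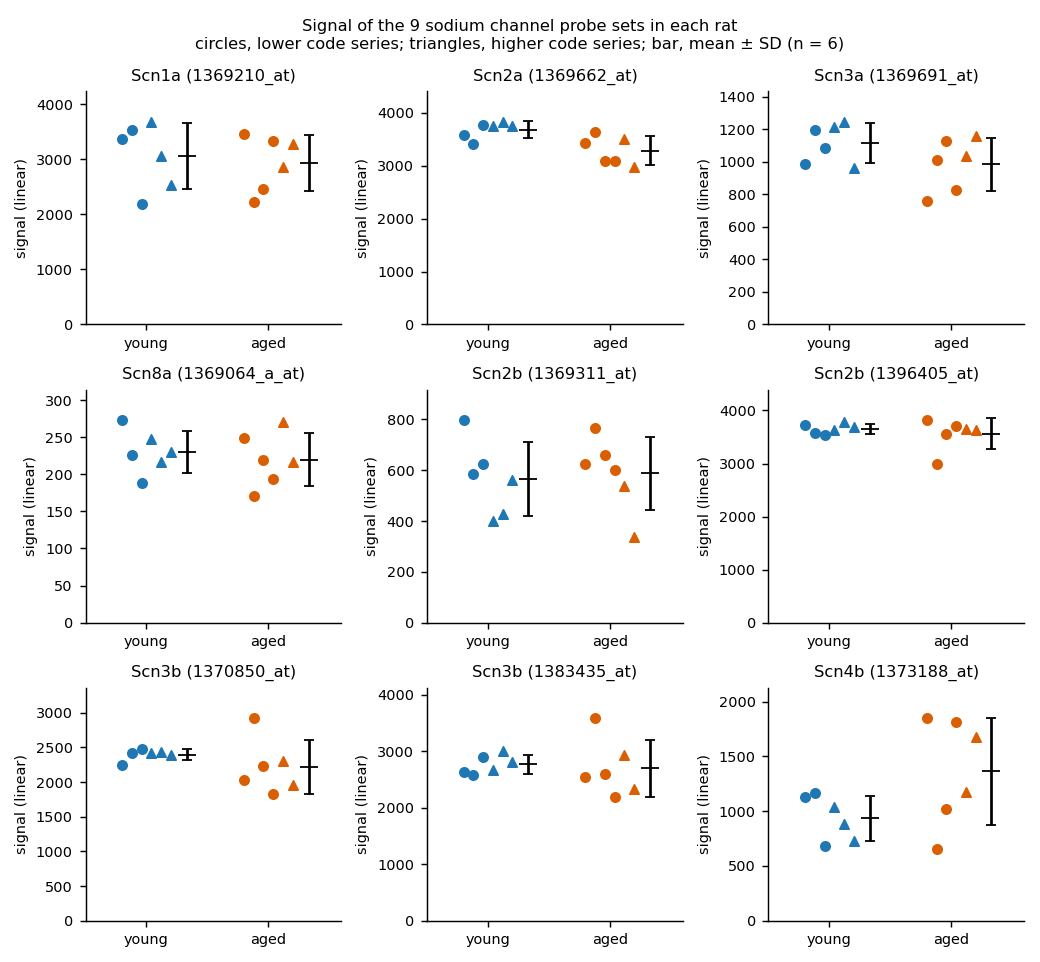
Linear signal of each of the 9 probe sets (y axes, each from 0 and on its own scale) in 6 young (blue) and 6 aged (orange) rats. Points are rats, drawn as circles for the lower and triangles for the higher series of sample codes, and bars are the mean ± SD; the ages overlap in every panel, and the aged rats spread most for Scn4b, from 655 to 1849.

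Among the alpha subunits, Scn2a had the smallest p. Its signal in young rats 1 to 6 was 3583, 3420, 3765, 3757, 3830 and 3747. In aged rats 1 to 6 it was 3421, 3633, 3086, 3095, 3515 and 2969. All 6 aged rats lay below the young mean and 3 of them below the lowest young rat, while aged rat 2 was as high as the middle of the young range. The mean was 3684 ± 153 (SD, n = 6) in young and 3287 ± 271 (SD, n = 6) in aged rats. On the log2 scale the aged group differed by -0.17 with an SE of 0.07 (limma, adjusted p = 0.59), a ratio of 0.89 with a 95% interval of 0.805 to 0.985. An exact permutation test of this probe set alone, two-sided over 924 assignments of the rats, gave p = 0.0152. The difference was -0.12 among the 7 rats of the lower series of sample codes and -0.23 among the 5 of the higher series. With each rat left out in turn it ran from -0.20 (without aged rat 2) to -0.14 (without aged rat 6), and the adjusted p over all alternatives ran from 0.388 to 0.999 (limma). The unadjusted call was lost without young rat 3 or 5, without aged rat 3, 4 or 6, within either series and with the subject number as a block. Endothelial and microglial markers varied against Scn2a across the 12 rats, age means removed, but neither relation passed after adjustment. The mean of 7 endothelial genes had r = -0.782 with Scn2a (permutation adjusted p = 0.0626). That of 12 microglial genes had r = -0.686 (permutation adjusted p = 0.129). Within the ages the endothelial r was 0.03 in young and -0.902 in aged rats. The microglial r was -0.285 in young and -0.771 in aged rats. With 1 rat left out, the weakest endothelial r was -0.669 (without aged rat 2). The weakest microglial r was -0.537 (without aged rat 6). Between the ages, 7 of 7 endothelial genes were higher in the aged mean, with a median difference of 0.21. Their sums were 3430 to 4297 in young and 3767 to 5646 in aged rats, at most 4525 without aged rat 6. Of the microglial genes 11 of 12 were higher, with a median of 0.25. Sums of the microglial genes were 5158 to 6765 and 5859 to 11017, the latter at most 7048 without aged rat 6. The part of both lists in the Scn2a difference was not tested.

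Scn3a, whose gene is the neighbour of Scn2a on the chromosome, had the lowest estimate of all 9 probe sets but a wider spread than Scn2a. Its signal ranged from 964 to 1245 in young rats, with a median of 1140, and from 756 to 1157 in aged rats, with a median of 1024. Aged rats 1 and 4, at 756 and 824, lay below every young rat, and the other aged rats lay within the young range. The difference was -0.19 with an SE of 0.12 (limma, adjusted p = 0.751; -0.20 without aged rat 2), and the exact two-sided permutation test gave p = 0.156. The mean log2 signal of 5 blood cell genes had r = 0.801 with Scn3a (permutation adjusted p = 0.061), and 5 of 5 were higher in the aged mean, by a median of 0.50. Their sums were 5098 to 9467 in young and 6451 to 9914 in aged rats. These sums were mostly Hbb, with a mean of 6119 out of 6413 in young and 7112 out of 7614 in aged rats. The r rests instead on the mean log2 signal, in which the 5 genes count equally, so it is not an r with Hbb. Aged rat 6 had the lowest aged sum, 6451, but a mean log2 signal of 8.229, close to the highest, 8.233 in aged rat 3. The part of the blood cell genes in the Scn3a values was not tested.

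Scn1a and Scn8a differed less between the ages than within them. Scn1a signal was 3379, 3534, 2192, 3684, 3056 and 2532 in young rats 1 to 6 and 3468, 2224, 2466, 3342, 2866 and 3282 in aged rats 1 to 6. Each age held rats with low and rats with high signal, and 3 of 6 aged rats lay on either side of the young mean. The difference was -0.05 with a 95% interval of -0.39 to 0.29 (limma, adjusted p = 0.973), and without aged rat 2 it was 0.02. Scn8a signal ranged from 189 to 273 in young rats and from 171 to 270 in aged rats, with medians of 228 and 218. Its difference was -0.07 with a 95% interval of -0.34 to 0.19 (limma, adjusted p = 0.94), and without aged rat 2 it was -0.0046. The Scn8a probe set is of the class that matches several transcripts of its gene, so the splice forms of Scn8a cannot be told apart here.

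Of the beta subunits, Scn4b had the largest difference and the largest spread among aged rats. Its product is covalently linked to the alpha subunit and is known as the blocking particle of resurgent sodium current. Signal in young rats 1 to 6 was 1127, 1162, 680, 1041, 883 and 727. In aged rats 1 to 6 it was 1849, 655, 1017, 1809, 1171 and 1676. Thus 4 of 6 aged rats lay above every young rat, whereas aged rat 2 lay below every young rat. The highest aged rat exceeded the lowest by 2.82-fold, against 1.71-fold among young rats. The mean was 937 ± 205 (SD, n = 6) in young and 1363 ± 488 (SD, n = 6) in aged rats. The log2 difference of 0.48 had an SE of 0.26 (limma, adjusted p = 0.696), a ratio of 1.39 with a 95% interval of 0.941 to 2.07. The exact two-sided permutation test gave p = 0.117. The estimate depended on aged rat 2, without which it was 0.67 (limma, adjusted p = 0.353, with a range of 0.353 to 0.999 over all alternatives). It was 0.34 in the lower series and 0.68 in the higher series (limma, adjusted p = 0.765 for the latter), where the aged rats number 2.

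Scn3b, a beta subunit that binds the alpha subunit without a covalent link, was read by a pair of probe sets whose listed target was not a curated RefSeq mRNA. On 1370850_at the young rats lay close together, from 2249 to 2474 with a median of 2414. The aged rats ran from 1824 to 2922 with a median of 2137, and 4 of them lay below every young rat. Aged rat 2 was the highest of all 12. The difference was -0.13 with an SE of 0.10 (limma, adjusted p = 0.806), and without aged rat 2 it was -0.21 (limma, adjusted p = 0.394, with a range of 0.394 to 0.999 over all alternatives). On 1383435_at the young rats ran from 2586 to 2998 and the aged rats from 2182 to 3584, again with aged rat 2 the highest. The difference there was -0.05 (limma, adjusted p = 0.953), and -0.14 without aged rat 2. The SD of the signal was 76.6 in young and 390 in aged rats on 1370850_at, and 164 and 506 on 1383435_at.

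The probe sets of Scn2b, whose product is covalently linked to the alpha subunit and is a substrate of the protease BACE1, did not follow each other. On 1396405_at, whose listed target was not a curated RefSeq mRNA, 11 of 12 rats lay between 3532 and 3821, and aged rat 2 had 2983. The difference was -0.04 with a 95% interval of -0.19 to 0.10 (limma, adjusted p = 0.936), and without aged rat 2 it was 0.0070. On 1369311_at, designed on the RefSeq mRNA, the signal ranged from 399 to 798 in young and from 337 to 765 in aged rats. The difference was 0.05 with a 95% interval of -0.41 to 0.51 (limma, adjusted p = 0.982). Its sign turned under 7 of 27 alternatives. Among these were median centring of the arrays, at -0.02, and leaving out aged rat 2, at -0.04, or young rat 4, at -0.04. This probe set differed between the series of sample codes instead, with the higher series lower by 0.58 on the log2 scale once age was a covariate (SE 0.14, limma, adjusted p = 0.252). No probe set on the array passed an adjusted p of 0.05 for series. Within the series the age difference of 1369311_at was -0.01 and -0.10.

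**Figure D2:**
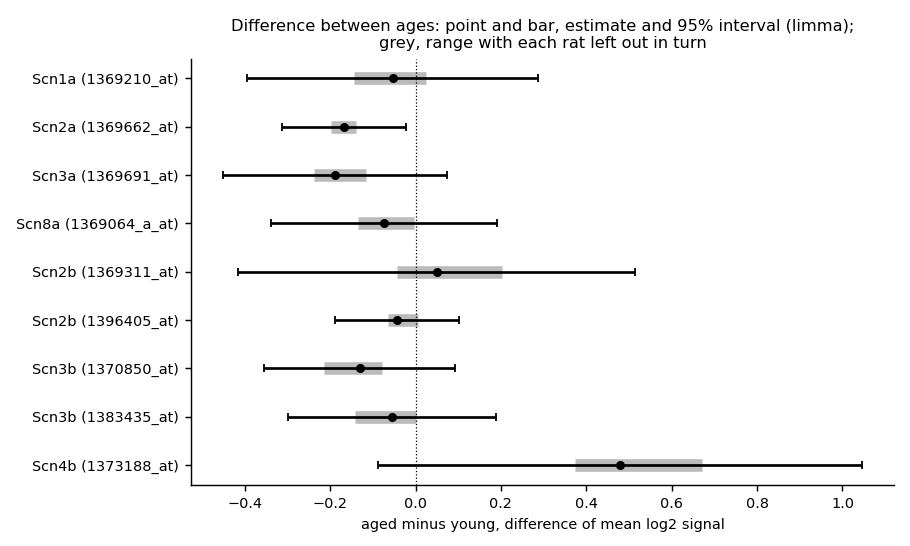
Aged minus young difference of mean log2 signal (x axis) for the 9 probe sets. Points and bars are limma estimates and 95% intervals, and grey bands give the range when each rat was left out in turn; the interval of Scn2a, -0.31 to -0.02, is the only one that lies wholly on 1 side of 0, and that of Scn4b runs from -0.09 to 1.05.

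Within an age, the SD of log2 signal was 0.28 for Scn1a, 0.39 for the Scn2b probe set 1369311_at and 0.48 for Scn4b. The other member probe sets lay between 0.09 and 0.21, below the median of 0.25 over all probe sets tested. The spread within an age group was used to ask which subunits varied together. For each gene the probe set with the higher mean was taken, the mean of its age group was removed, and 121 relations were computed: 21 between genes, 2 between probe sets of a gene and 98 with lists of cell type or region markers. Permutation p-values (100000 resamples within the ages, two-sided) were adjusted over all 121. Of the 21 relations between genes, 3 passed an adjusted p of 0.05 by Pearson's r and 1 by Spearman's rho. These relations share arrays and their scaling.

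The strongest was that of Scn1a with Scn4b. Over 12 rats r was 0.914 (permutation p = 4e-05, adjusted p = 0.00484) and rho was 0.867 (permutation p = 0.00032, adjusted p = 0.0387). Within the ages r was 0.949 over 6 young and 0.982 over 6 aged rats. Without young rat 3 and aged rat 2, the farthest from the median of Scn1a, r was again 0.914. With both age and series removed r was 0.926, and leaving out any 1 rat gave 0.905 to 0.942. Young rat 3 and aged rat 2 were the lowest of their ages for Scn1a and for Scn4b alike.

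Scn3b varied against Scn4b, with r = -0.858 (permutation p = 0.00286, adjusted p = 0.0494) and rho = -0.825 (permutation p = 0.00465, adjusted p = 0.0967). Without aged rats 2 and 4, r was -0.675. Scn2a varied with Scn3b, with r = 0.824 (permutation p = 0.00279, adjusted p = 0.0494) and rho = 0.79 (permutation p = 0.0134, adjusted p = 0.163). Without young rat 2 and aged rat 6, r was 0.824. Under median centring neither relation passed, with adjusted p = 0.167 for Scn3b with Scn4b and 0.124 for Scn2a with Scn3b. The neighbouring genes Scn2a and Scn3a had r = -0.185 (permutation p = 0.591, adjusted p = 0.753). Scn2b and Scn4b, also neighbours, had r = 0.77 (permutation p = 0.0148, adjusted p = 0.112), which was 0.362 without aged rats 1 and 2.

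**Figure D3:**
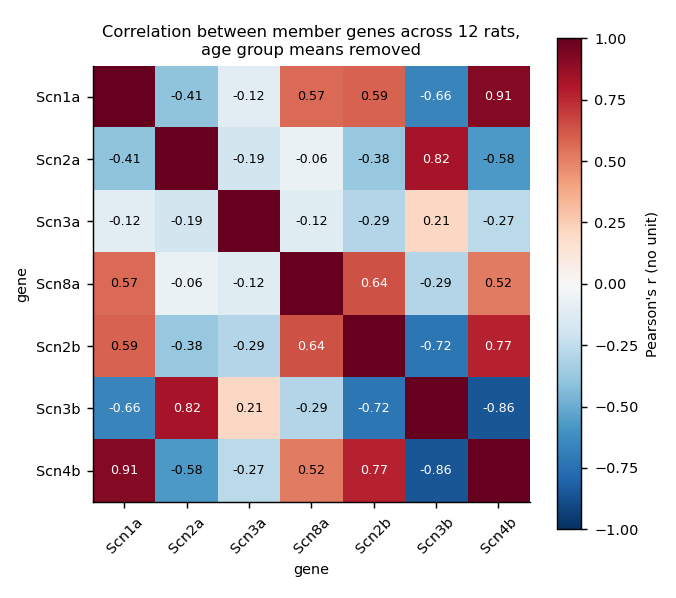
Pearson's r between the 7 genes (both axes) across 12 rats after removal of the age group means, from -1 (blue) to 1 (red). Scn1a and Scn4b are closest, at 0.91, Scn2a goes with Scn3b at 0.82, and Scn3b runs opposite to Scn4b at -0.86.

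The pair of Scn3b probe sets followed each other, with r = 0.946 (permutation p = 0.00017, adjusted p = 0.0103) and rho = 0.888 (permutation p = 0.00101, adjusted p = 0.0529). Without aged rats 2 and 4, r was 0.778. The pair of Scn2b probe sets had r = -0.345 (permutation p = 0.274, adjusted p = 0.553). A result for Scn2b therefore holds for the probe set it was read from.

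Log2 ratios within each array were set against age for all 21 pairs of the 7 genes, a comparison added after the values were seen. Scn4b over Scn1a, a pair that varied together from rat to rat, had the smallest p of the 21 and was picked out after that. Its age difference restates those of its genes, 0.48 for Scn4b and -0.05 for Scn1a, and is not a separate result. The log2 of Scn4b over Scn1a was -1.58, -1.60, -1.69, -1.82, -1.79 and -1.80 in young rats 1 to 6. In aged rats 1 to 6 it was -0.91, -1.76, -1.28, -0.89, -1.29 and -0.97. The value itself depends on the probes and has no absolute meaning, but 5 of 6 aged rats lay above every young rat, and aged rat 2 lay among the young. The aged mean was higher by 0.53 (exact permutation p = 0.00866, two-sided). Over the 21 ratios that 7 genes allow, the adjusted p was 0.182 and none passed. With any other rat left out the difference was 0.47 to 0.56, with adjusted p = 0.227 to 0.409 (exact permutation). Without aged rat 2 it was 0.65 with an exact permutation p = 0.00216, the smallest that this test allows, and adjusted p = 0.0455, which follows from leaving out the 1 aged rat that lay among the young and is no support for a difference. It was 0.42 within the lower and 0.67 within the higher series, with exact permutation p = 0.2 and 0.1. With 3 young and 2 aged rats in the higher series, 0.1 is the smallest p that the test allows, so it cannot decide there.

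**Figure D4:**
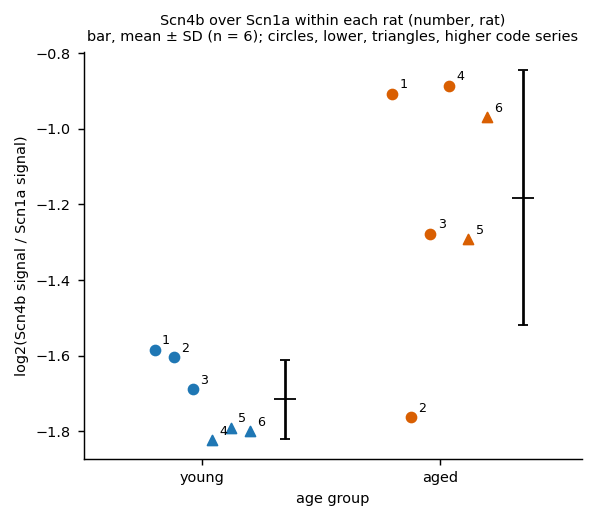
Log2 ratio of Scn4b to Scn1a signal (y axis) in 6 young (blue) and 6 aged (orange) rats, each numbered; circles and triangles mark the lower and higher series of sample codes and bars the mean ± SD. Young rats lie between -1.82 and -1.58, and 5 aged rats lie above them, with aged rat 2 at -1.76.

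Of the 98 relations with marker lists, 3 passed an adjusted p of 0.05 by Pearson's r and 0 by Spearman's rho, and these concerned Scn4b and Scn3b. The mean log2 signal of 11 oligodendrocyte and myelin genes had r = 0.87 with Scn4b (permutation p = 0.00075, adjusted p = 0.0302; rho = 0.832, adjusted p = 0.0529), and 0.826 without young rat 3 and aged rat 2. The same myelin genes had r = 0.765 with Scn1a and -0.783 with Scn3b, neither of which passed (permutation adjusted p = 0.0626 for each). The 5 oligodendrocyte progenitor genes had r = 0.815 with Scn4b (permutation p = 0.00245, adjusted p = 0.0494) and -0.816 with Scn3b (permutation p = 0.00149, adjusted p = 0.0451). Their rho was 0.811 and -0.79, each with adjusted p = 0.0967. Under median centring none of the 3 passed: Scn4b had r = 0.864 with the myelin genes (permutation adjusted p = 0.0569) and 0.753 with the progenitor genes (permutation adjusted p = 0.124), and Scn3b had r = -0.50 with the progenitor genes (permutation adjusted p = 0.361). With quantile normalization Scn4b and the progenitor genes had an adjusted p of 0.0677 (permutation). Between the ages, 11 of 11 myelin genes had a higher aged mean, with a median difference of 0.24 and 0 at an adjusted p under 0.05 (limma over 13253 genes). Their summed signal ran from 34648 to 51035 in young and from 35965 to 59442 in aged rats. The 5 progenitor genes were likewise all higher in the aged mean, by a median of 0.21, with sums of 3478 to 4471 and 3723 to 5193. Endothelial, microglial and blood cell genes also had higher aged means, by the medians given above, and 7545 of all 13253 genes tested had a higher aged mean. Aged rats 1 and 4, with the highest Scn4b, had the highest myelin sums of the aged rats, 57558 and 59442, and aged rat 2 the lowest, 35965. The part of these lists in the differences of Scn4b and Scn3b was not tested. In whole cortex RNA fewer cells of a type and less RNA per cell cannot be told apart.

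**Figure D5:**
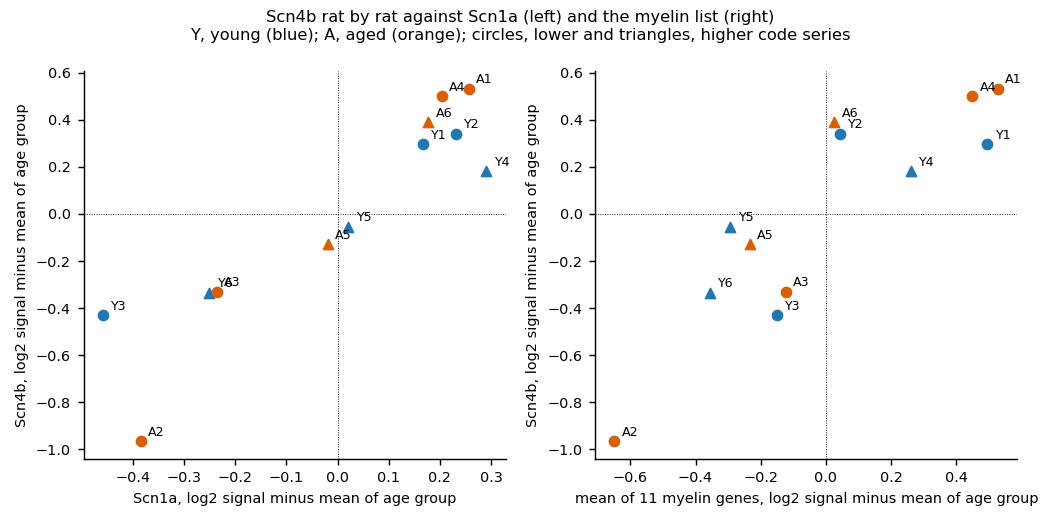
Scn4b (y axes) against Scn1a (left) and against the mean of 11 myelin genes (right), each as log2 signal minus the mean of its age group, in 12 rats. Letters and numbers name the young (Y, blue) and aged (A, orange) rats, and symbols the series of sample codes; r is 0.914 on the left and 0.87 on the right, and aged rat 2 is lowest for Scn4b in each.

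Scn4b is known to be high in striatum, so tissue from below the cortex was checked through region markers. The 10 striatal genes on the array had r = -0.568 with Scn4b (permutation adjusted p = 0.32), a median age difference of -0.06, and sums of 3462 to 4027 in young and 3352 to 4162 in aged rats. Of these genes Isl1 lay at or below the cutoff on average and none was at 0. Aged rat 2, lowest for Scn4b, had the highest striatal sum, 4162. The 5 thalamic genes had r = 0.849 with Scn4b (permutation adjusted p = 0.0626) and a median age difference of 0.01, with sums of 1783 to 2348 in young and 1514 to 2579 in aged rats. Within the ages this r was 0.357 in young and 0.976 in aged rats. With Scn1a the thalamic genes had r = 0.732 (permutation adjusted p = 0.0626). The 6 hippocampal genes had r = -0.159 with Scn4b (permutation adjusted p = 0.773). Their median age difference was 0.16, with 4 of 6 higher, and Tdo2 lay at or below the cutoff on average. The part of these lists in the Scn4b values was not tested. All 15 neuronal and all 10 cortical layer genes lay above the cutoff on average. The neuronal genes had a median difference of -0.04, with 12 of 15 lower, and the 9 interneuron genes one of -0.10, with 7 of 9 lower. That of the 7 excitatory neuron genes was -0.09, with 5 of 7 lower. Across rats Scn1a had r = -0.568 with the interneuron genes (permutation adjusted p = 0.252). Its r was 0.257 with the excitatory neuron genes (permutation adjusted p = 0.695) and 0.519 with the neuronal genes (permutation adjusted p = 0.327).

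The genes whose signal followed each member most closely were found over 13246 other genes and 12 rats, age means removed, as a description. Vamp1, a vesicle protein of transmitter release, was the closest gene to Scn1a (r = 0.958) and to Scn4b (r = 0.962). The next were Tnnc2 for Scn1a (r = 0.956) and Eif5a2 for Scn4b (r = 0.96). Scn2a was followed by Map4k3 and Ruvbl1 (r = 0.916 for each), and Scn3a by Srrm3 (r = 0.958) and Atp6v1c2 (r = 0.922). For Scn3b they were the adhesion molecule L1cam (r = 0.942) and Tmem64 (r = 0.933), and for Scn2b the metalloprotease Adamts4 (r = 0.949) and Ivns1abp (r = 0.939). The values for Scn2b rested on aged rat 2, since without that rat they were 0.724 and 0.676, and rho over all 12 rats was 0.86 and 0.65. For L1cam and Tmem64 they were 0.847 and 0.838 without it, and for the others named 0.815 or more. Scn8a had no gene above 0.9, with LOC100363236 (r = 0.885) and LOC102555145 (r = 0.838) closest. Over 0.9 were 41 genes for Scn4b, 32 for Scn2b, 11 for Scn1a, 6 for Scn3b, 3 for Scn2a and 3 for Scn3a. Without aged rat 2 these counts were 16, 3, 13, 2, 1 and 11, and 2 for Scn8a.

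Upstream sequence was set beside the genes that moved together, Scn1a with Scn4b and Scn2a with Scn3b. The RefSeq table of rat promoters (build GRCr8, 250 bases before to 50 after the start) held 5 of the 7 members and not Scn1a and Scn3b. Shown are Scn4b, with the largest age difference, and Scn2a, with the smallest p; both lie on the plus strand, at chr8:54343623-54343922 and chr3:70710706-70711005, and capitals mark CG pairs.
Scn4b: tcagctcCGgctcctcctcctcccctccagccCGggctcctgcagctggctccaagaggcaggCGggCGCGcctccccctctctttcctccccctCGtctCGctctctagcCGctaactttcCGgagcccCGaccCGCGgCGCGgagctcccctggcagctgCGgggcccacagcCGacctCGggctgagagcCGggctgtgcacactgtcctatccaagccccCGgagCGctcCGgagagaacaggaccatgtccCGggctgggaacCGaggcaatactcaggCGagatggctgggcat
Scn2a: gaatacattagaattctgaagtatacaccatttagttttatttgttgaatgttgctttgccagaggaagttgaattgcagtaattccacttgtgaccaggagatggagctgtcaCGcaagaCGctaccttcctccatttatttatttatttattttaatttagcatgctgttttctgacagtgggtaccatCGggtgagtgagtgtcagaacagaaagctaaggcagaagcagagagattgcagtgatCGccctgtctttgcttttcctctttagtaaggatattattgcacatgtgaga
The Scn4b window held 24 CG pairs and 70.0% G and C, more pairs than 82.0% of the 33469 promoters in the table. The Scn2a window held 4 CG pairs and 39.3% G and C, more pairs than 30.7% of them. Scn2b, the neighbour of Scn4b, had 2 pairs, Scn3a had 7 and Scn8a had 60. Neither TATAAA nor GGGCGG, searched on both strands, occurred in the windows of Scn4b and Scn2a. TATAAA was in 14.2% and GGGCGG in 33.1% of all windows, and GGGCGG was found in the Scn8a window alone among the 5 members. These matches are descriptions of the letters only.

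Genes of the proteins that anchor, modify or accompany the channels were read from a list of 36, of which 31 were tested. None passed an adjusted p of 0.05 (limma over 13253 genes, where 0.0528% did). At an unadjusted p up to 0.05, 2 were higher and 0 lower, against 6.49% of all genes higher and 2.62% lower, and the median difference was -0.03, with 13 higher and 18 lower. Cntn2, an adhesion molecule of neurons and oligodendrocytes found beside the node of Ranvier, had 144 ± 17.0 (SD, n = 6) in young and 197 ± 32.0 (SD, n = 6) in aged rats. Its difference was 0.44 with an SE of 0.11 (limma, adjusted p = 0.277). Kcnab2, an auxiliary subunit of axonal potassium channels, had 1972 and 2213, a difference of 0.17 (limma, adjusted p = 0.541). Fgf13, an intracellular growth factor homologue that binds the tail of alpha subunits, had 6843 and 6301, a difference of -0.12 (limma, adjusted p = 0.595). The scaffold Ank3, which holds sodium channels at the initial segment, had 2477 and 2364 (limma, adjusted p = 0.877), and is named for this role and not by its values.

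Of 6 other sodium channel genes read from the array, 4 were tested. Nalcn, the sodium leak channel, had 2808 ± 182 (SD, n = 6) in young and 2518 ± 279 (SD, n = 6) in aged rats, a difference of -0.16 (limma, adjusted p = 0.569). Scn7a, Scn9a and Scn10a, which belong mainly to glia or peripheral neurons, had differences of 0.03, -0.02 and 0.04, each with an SE of 0.16 or more. Scn4a and Scn11a did not pass the filter.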

How the data were processed

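Cortical RNA of 6 young and 6 aged rats was measured on 12 arrays. The deposited values are linear signal intensities, 1 for each array and probe set; after 2% of values at each end were trimmed, each array had a mean of 500.1. The submitters' notes name MAS5, GCRMA and R 2.7.1; the methods say that gcRMA calculated the signals and that these were deposited. GcRMA values are on a log2 scale, whereas those deposited are linear and scaled as described, and the role of MAS5 was not stated. A cutoff of 4.3, which the methods set on gcRMA signals and which is therefore not the same cutoff on this scale, was applied to the log2 of these intensities (signal 19.7, on at least 3 arrays) and left 28193 of 31099 probe sets, so few were removed. The design had assumed log2 values. No further normalization was applied, and the array medians ranged from 161.6 to 194.3. The precision of a value is limited by the number of arrays.

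Groups came from the titles. Ages were compared with limma 3.58.1 (lmFit and eBayes, R 4.3.3) in two-sided tests, and p was adjusted by Benjamini-Hochberg across all probe sets, or across 13253 genes for gene lists (probe set with the highest mean). Fold changes are differences of mean log2 signal. Symbols came from the platform annotation (20832 probe sets with 1 symbol, 436 with several, 9831 with none), updated through a RefSeq gene table. The labels do not describe RNA extraction batches; the sample codes fall into a lower (3 young, 4 aged) and a higher (3 young, 2 aged) series, which was used as a block. Permutation tests ran in Python 3.11.15 with numpy and scipy.

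Members and lists were chosen with earlier results of these data known. All member probe sets are named, with the partner and other channel genes at p up to 0.05, filled up to the 4 smallest p over both lists, and the 2 genes closest to each member; Ank3 and the untested channels were added. The correlations across rats, the ratios of members and their alternatives were added after the data were seen. Alternatives were quantile normalization, median centring, other filters, an offset of 16, intensity trend, array weights, the methods' t-test, series and subject number as blocks, each series alone, averaging of a gene's probe sets, and each rat (or aged rats 2 and 6 together) left out. On data simulated for the age comparison of 28193 probe sets, 69 of 100 changes of size 1 and 28 of 100 of size 0.5 (log2) were recovered at an adjusted p of 0.05. The simulated noise was independent between probe sets, unlike that of real arrays. All member estimates were smaller than either size, and 76.1% of probe sets had a smaller SD than Scn4b. The rates therefore do not say what could be detected for the members.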

Additional observations from a re-analysis of the deposited data

Results flagged for a closer look

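In 2 of the 18 sets of 6 rats (9 probe sets, each age) 1 rat stood apart from the other 5 by Dixon's criterion, which chance meets in about 1 in 20 sets. On the Scn2b probe set 1396405_at aged rat 2 had a signal of 2983, and the other aged rats lay between 3565 and 3821. On the Scn3b probe set 1370850_at young rat 1 had 2249, and the other young rats lay between 2390 and 2474.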

How the results depend on the processing

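No member passed an adjusted p of 0.05 under any alternative run. Scn2a, Scn3a, the Scn3b probe set 1370850_at and Scn4b kept their direction under all 27 alternatives each, with ranges of -0.24 to -0.12, -0.26 to -0.05, -0.21 to -0.08 and 0.34 to 0.68. Some of the 27 could not change an estimate: the filters, intensity trend, the methods' t-test, the permutation test and the subject number as a block. Their agreement in direction was fixed in advance. Median centring turned the Scn2b probe set 1369311_at to -0.021, put 2 members (Scn2a and Scn3a) lower with p up to 0.05 before adjustment and moved the median of the members to -0.13 and of the partner list to -0.10. Over all probe sets, 1598 were higher and 600 lower at that p (72.7% higher), against 989 and 915 (51.9%) with quantile normalization and 874 and 1424 (38.0%) with median centring. With the series as a block 1369311_at was at -0.047, within the lower series at -0.0067 and within the higher at -0.10, where Scn1a was at 0.0057 and Scn8a at 0.066. Members lower at that p numbered 0 within either series, and 1 was higher with array weights and within the higher series. Without aged rats 2 and 6 together, Scn8a was at 0.014 and the Scn2b probe set 1396405_at at 0.011, and 1 member was higher and 2 lower. Of all 27750 probe sets tested there, 1359 were higher and 763 lower at that p. The mean of both probe sets put Scn2b at 0.0032.

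With 1 rat left out in turn, Scn1a ranged from -0.14 to 0.024, 1369311_at from -0.043 to 0.20, 1396405_at from -0.064 to 0.0070 and the Scn3b probe set 1383435_at from -0.14 to 0.0022. Members lower with unadjusted p up to 0.05 ranged from 0 to 2 and members higher from 0 to 1. Over all probe sets these counts ran from 448 to 731 lower and from 1254 to 1863 higher. The count lower was 0 without young rats 3 or 5 or aged rats 3, 4 or 6. Without aged rat 2, 2 members were lower and 1 higher, against 731 lower and 1863 higher of all 27983 probe sets. Probe sets passing an adjusted p of 0.05 on the whole array ranged from 0 to 10. The causes were not tested.

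Subject numbers are shared by the ages but name different rats. The correlation of same-numbered deviations ran from -0.03 to 0.11, and 2 of 6 numbers correlated best with their own. With the number as a replicate block, 0 members were lower at unadjusted p up to 0.05, against 646 of all 28193 probe sets. Scn2a was then at -0.17 with adjusted p = 0.559 (limma). Of the 7 relations across rats that passed, 7 kept their sign with both scalings and rho; that of Scn1a with Scn4b also kept its adjusted p under 0.05 in each, and the other 6 lost it in at least 1.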
